A study of Homo sapiens with 19 samples.

Results

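In MOLM-13 cells, 710 distal chromatin sites carried H3K4me2 but no H3K27ac peak under the vehicle DMSO, and an H3K27ac peak in both libraries of cells given Corin. They were chosen from 33662 regions made by merging both DMSO H3K4me2 peak lists. Of these regions, 25088 had a peak in both lists, 9404 of those lay more than 1 kb from every GENCODE release 44 transcription start site (TSS) of a protein-coding or lncRNA gene, and 8402 of those had no peak in any of the 4 H3K4me3 lists. Of the 8402, 4570 had no peak in either DMSO H3K27ac list and are called primed here. The 710 sites are the primed sites with a peak in both Corin H3K27ac lists. Another 989 primed sites had a peak in 1 Corin list, and 2871 had none and are called staying sites. The 2388 distal sites with H3K27ac in both DMSO lists, called active sites, served as a second comparison. Acquired H3K27ac means a called peak in Corin and none in DMSO, so H3K27ac itself chose the sites and is described below without a test.

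MOLM-13 is an established human acute myeloid leukaemia line that carries an MLL fusion. Corin is a synthetic dual inhibitor directed at CoREST, blocking its demethylase LSD1 as well as its deacetylases. All groups were this line cultured for 24 h with Corin or with DMSO, and the labels give 0.1 µM for both. CUT&RUN, in which an antibody-tethered nuclease releases the fragments that carry a mark, was made for H3K27ac, H3K4me2 and H3K4me3 each with 2 libraries from either treatment, which makes 12. The labels do not say that the libraries came from separate cultures, so the p-values measure only the spread between these libraries. The lists hold 17599 and 19995 H3K27ac peaks in DMSO and 34424 and 30029 in Corin. For H3K4me2 they hold 30896 and 32299 in DMSO and 41152 and 40042 in Corin, and for H3K4me3 between 11104 and 11883. They hold no reads, so the depth behind a list is not known, although the labels state at least 5000000 reads a sample. H3K4me3 lay within 1 kb of a TSS of 8 of 10 markers of the line in all 4 lists (PTPRC, CD33, FLT3, SPI1, CEBPA, MEIS1, HOXA9 and LYZ). It was in no list at ITGAM and MPO, nor at any of 8 markers of other cell types.

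Enhancers are commonly described in steps. H3K4me1 and H3K4me2 mark sites that factors have opened, and H3K27ac, laid down by p300 and CBP, is added where the enhancer is active. In the CoREST complex, LSD1 removes methyl groups from H3K4me1 and H3K4me2 while its deacetylase partners remove acetyl groups such as that of H3K27ac, and the complex is brought to myeloid enhancers by repressors such as GFI1. In acute myeloid leukaemia, enhancers of differentiation genes can be held in the primed state, and factors of the ETS, C/EBP, RUNX and AP-1 families bind many of them.

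The central 300 bp of 5 of the sites are printed here on the plus strand of hg38, as examples of the sequence under the acquired H3K27ac. They come from the 12 sites with the most H3K27ac inside the site in Corin, described below. Each is named by its nearest protein-coding gene, and distances to a gene are to its nearest annotated TSS. Capitals mark matches on either strand to 4 motifs of blood factors, given as letters: the ETS core GGAAGT, the RUNX motif TGTGGT, the C/EBP motif TTGCNNAA and the AP-1 motif TGANTCA, where N is any base.
GNA12 site, chr7:2863168-2863467: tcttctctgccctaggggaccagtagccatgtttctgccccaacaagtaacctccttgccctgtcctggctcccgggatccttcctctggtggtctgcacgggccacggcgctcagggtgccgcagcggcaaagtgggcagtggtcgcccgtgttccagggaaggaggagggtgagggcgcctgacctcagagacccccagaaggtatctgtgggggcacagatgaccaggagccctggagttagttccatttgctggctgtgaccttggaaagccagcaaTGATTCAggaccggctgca
IRGC site, chr19:43700314-43700613: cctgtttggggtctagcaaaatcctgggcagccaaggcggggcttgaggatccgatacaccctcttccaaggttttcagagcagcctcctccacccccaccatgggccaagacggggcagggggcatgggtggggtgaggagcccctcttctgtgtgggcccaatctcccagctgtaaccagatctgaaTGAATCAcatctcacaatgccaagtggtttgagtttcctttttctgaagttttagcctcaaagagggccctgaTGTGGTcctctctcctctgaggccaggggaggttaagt
UCN2 site, chr3:48560580-48560879: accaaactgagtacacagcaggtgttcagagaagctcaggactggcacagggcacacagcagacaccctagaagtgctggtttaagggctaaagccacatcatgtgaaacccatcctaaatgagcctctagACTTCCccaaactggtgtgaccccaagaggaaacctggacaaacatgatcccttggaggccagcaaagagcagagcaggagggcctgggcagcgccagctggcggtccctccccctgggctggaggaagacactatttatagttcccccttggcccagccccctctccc
STAB1 site, chr3:52498460-52498759: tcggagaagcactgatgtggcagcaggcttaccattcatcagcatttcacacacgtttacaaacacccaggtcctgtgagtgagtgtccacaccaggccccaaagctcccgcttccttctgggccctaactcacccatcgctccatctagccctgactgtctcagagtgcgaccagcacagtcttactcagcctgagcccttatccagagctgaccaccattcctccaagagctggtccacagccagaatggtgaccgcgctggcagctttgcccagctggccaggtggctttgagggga
OLIG3 site, chr6:137389494-137389793: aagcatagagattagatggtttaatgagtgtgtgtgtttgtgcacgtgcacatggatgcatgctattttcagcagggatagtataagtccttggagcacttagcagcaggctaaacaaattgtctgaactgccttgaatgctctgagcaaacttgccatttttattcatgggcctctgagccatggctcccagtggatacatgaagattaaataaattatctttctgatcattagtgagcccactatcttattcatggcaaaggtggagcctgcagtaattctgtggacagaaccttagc

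The GNA12 window held an AP-1 match and the IRGC window an AP-1 and a RUNX match. The UCN2 window held an ETS core, on the minus strand. The STAB1 and OLIG3 windows held none of the 4 motifs, and no window held a C/EBP match. A match is a stretch of letters and says nothing of whether the factor was bound. These windows are not typical of the 710 sites in base composition. Their GC content was 61.7% at GNA12, 56% at IRGC, 56.7% at UCN2, 57.3% at STAB1 and 42.3% at OLIG3, against a median of 48.3% over the windows of the 710 sites.

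The 710 sites were 15.5% of the 4570 primed sites (95% Wilson interval 14.5% to 16.6%, counting error over sites only). The share depended by more than the interval on which H3K27ac lists the rule asked for. Without H3K27ac Corin replicate 2 it was 31.5% (1439 sites), without DMSO replicate 1 21.5% (1121) and without DMSO replicate 2 24.9% (1336). Leaving out such a list removes a condition of the rule, so the count could only stay or rise, and all 710 sites were kept. The share of 15.5% is fixed by the rule and is also the background against which the shares below are read. H3K27ac was present in Corin replicate 1 alone at 729 primed sites and in replicate 2 alone at 260, so the lists of both replicates differed in reach. The Corin lists are longer than the DMSO lists. With the 17599 top-scoring peaks of each H3K27ac list the rule gave 265 sites, 5.64% of 4697 primed sites, and 236 of the 710 met it. Active sites seldom went the other way: 2292 of the 2388 kept H3K27ac in both Corin lists and 6 had it in neither. This count used the full lists, and the longer Corin lists leave less room for a loss. It was not made at a matched number of peaks.

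The acquired H3K27ac was smaller and lower ranked than that of active sites. It covered on average 509.5 bp of the site in Corin replicate 1 and 422.6 bp in replicate 2, which was 62.4% and 53.1% of the site. Active sites had 983.6 and 849.7 bp in the same lists, 85.7% and 74.6% of the site. They were chosen for H3K27ac already present in DMSO and were wider (median 1023.5 against 802.5 bp), so this comparison is a description. The deposited peak score of the sites lay at a median percentile of 53 and 44 within the Corin lists, and that of active sites at 86.6 and 82.5. The peaks at the sites were therefore ordinary members of their lists, below most peaks of active sites. In 285 sites H3K27ac covered at least 50% of the site in both libraries, and in 21 it covered less than 100 bp in one of them. The smallest overlap was 6 bp, and the median of the smaller overlap per site was 311.5 bp.

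**Figure D1:**
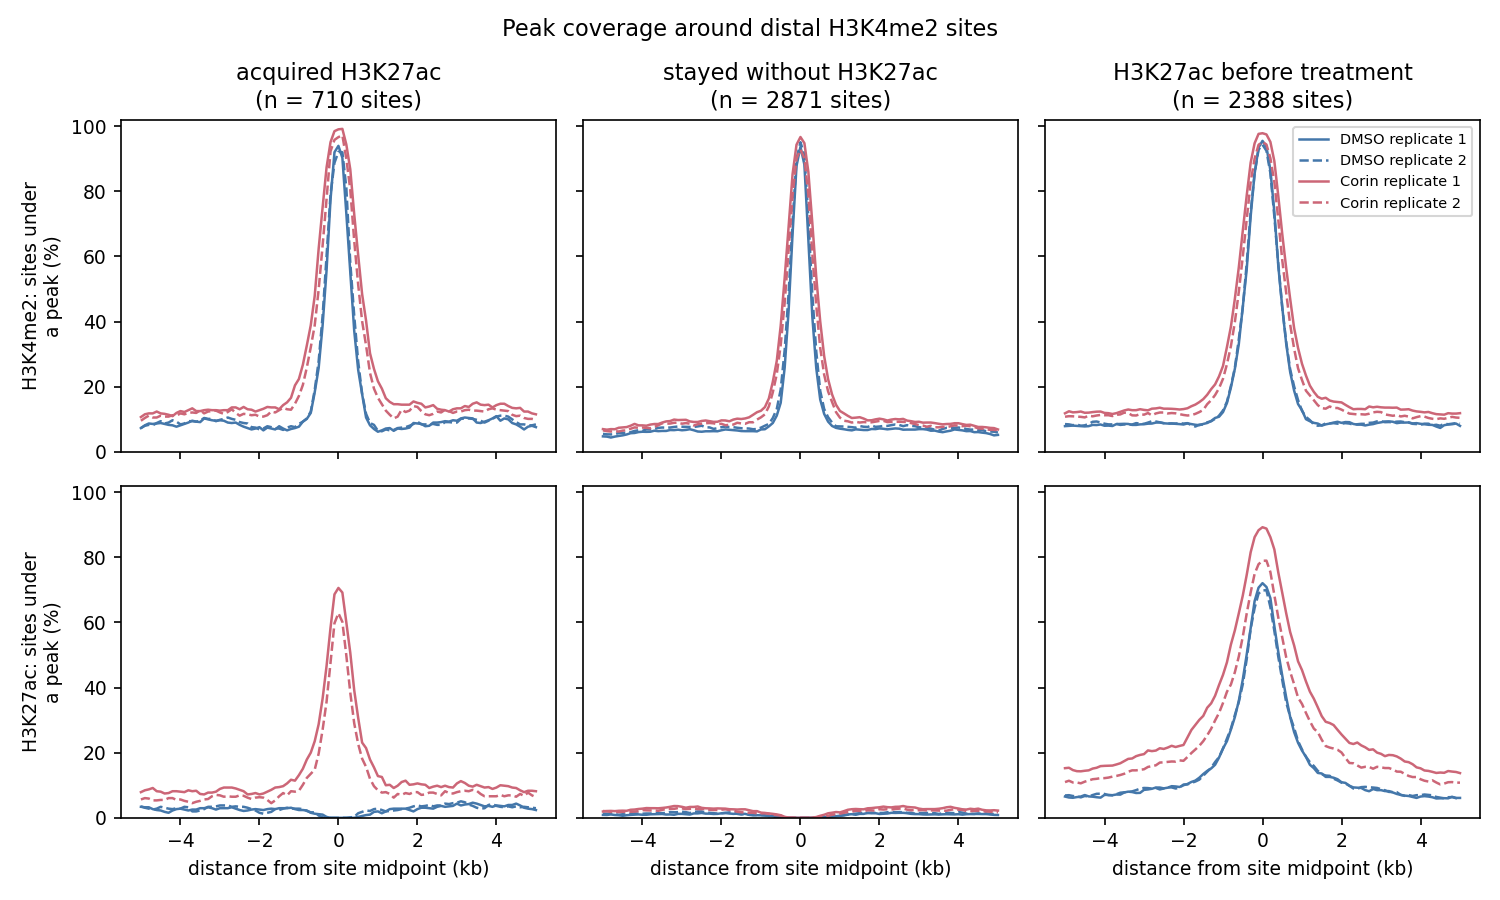
Percent of sites under a peak at each distance from the site midpoint (kb, every 100 bp), for H3K4me2 (top row) and H3K27ac (bottom row) at the 710 sites, the 2871 staying sites and the 2388 active sites. Lines are single libraries. At the 710 sites H3K27ac is 0 at the midpoint in DMSO by construction, and H3K4me2 is broader in both Corin libraries than in both DMSO libraries.

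The 12 sites with the most bp of H3K27ac inside the site, ranked by the smaller of both Corin values, were all at 0 bp in both DMSO libraries. This value cannot exceed the width of the site, so it does not rank the width of the H3K27ac domain. The first lay in intergenic sequence at chr8:142040655-142042552, 312211 bp from TSNARE1, a SNARE domain protein gene. It had 1690 and 1700 bp of H3K27ac in Corin replicates 1 and 2. The next, chr10:103470861-103472353, was intergenic beside CALHM3, an ion channel subunit gene, and H3K27ac covered all 1493 bp of it in both Corin libraries. The promoter of CALHM3 had no peak of any of the 3 marks in any library.

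The site at chr7:2862530-2864105, 18222 bp upstream of GNA12, the alpha subunit of a G protein, had 1227 and 1223 bp. An intronic site of GNAI2, the alpha subunit of an inhibitory G protein, at chr3:50242526-50243548, was covered whole, with 1023 bp in both Corin libraries. An intronic site of PFKFB4, a regulator of glycolysis, at chr3:48559944-48561515 and 2266 bp from the start of the peptide hormone gene UCN2, had 1572 and 1206 bp. At GNAI2 and CALHM3 the value is the whole width of the site, so it cannot show how the libraries differ. In the 4 kb window H3K27ac covered 2568 and 2227 bp at GNAI2 and 1814 and 1970 bp at CALHM3.

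STAB1, a scavenger receptor of macrophages, had an intronic site at chr3:52497830-52499389, 2492 bp from its start, with 1175 and 1560 bp of H3K27ac. The STAB1 promoter had no H3K27ac in either DMSO library and 1051 and 512 bp in Corin, with no H3K4me3 in any library. RUNX1T1, a fusion partner of RUNX1 in leukaemia, was the nearest gene, at 421022 bp, to a site in a lncRNA intron at chr8:92524308-92525535 with 1031 and 1193 bp. That site lay 1164293 bp from the nearest DMSO H3K27ac peak. A distance of this size names a neighbour only.

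The site at chr19:43699521-43701407, in an exon of a lncRNA and upstream of the GTPase gene IRGC, had 1254 and 1218 bp. A site 103896 bp downstream of OLIG3, a neural transcription factor gene, at chr6:137388790-137390498, had 1078 and 1493 bp, with a DMSO H3K27ac peak 235 bp away. Intronic sites of the coregulator gene TCF20 (chr22:42299595-42301260) and of the ubiquitin ligase gene RNF122 (chr8:33554018-33555684) had 1091 and 1055 bp, and 955 and 1406 bp. The intergenic site beside SNX18, a sorting nexin gene, at chr5:54646162-54647694, had 1533 and 1052 bp. With the H3K27ac lists at a matched number, the mean Corin value fell to 390.5 bp at TCF20, 387.5 bp at RNF122 and 511.5 bp at GNAI2, and to 916.5 bp at OLIG3. It was the same at the other 8 sites.

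H3K4me2 around these sites shows how far single sites vary. At the GNAI2 site it covered 987 and 1019 bp of the 4 kb window in DMSO and 2113 and 2124 bp in Corin. At the GNA12 site it covered 1294 and 1561 bp in DMSO and 2264 and 2150 bp in Corin. Both Corin values exceeded both DMSO values at each. At the TSNARE1 site the treatments overlapped, with 1660 and 1898 bp in DMSO and 1664 and 1793 bp in Corin. They also overlapped at STAB1, with 781 and 1560 bp in DMSO and 931 and 1744 bp in Corin, and at TCF20, with 1245 and 1666 bp in DMSO and 2244 and 1664 bp in Corin. At the other 9 of the 12 named sites both Corin values were above both DMSO values. Over all 8402 distal sites this held at 63.1%, so the count is not a result about the named sites.

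**Figure D2:**
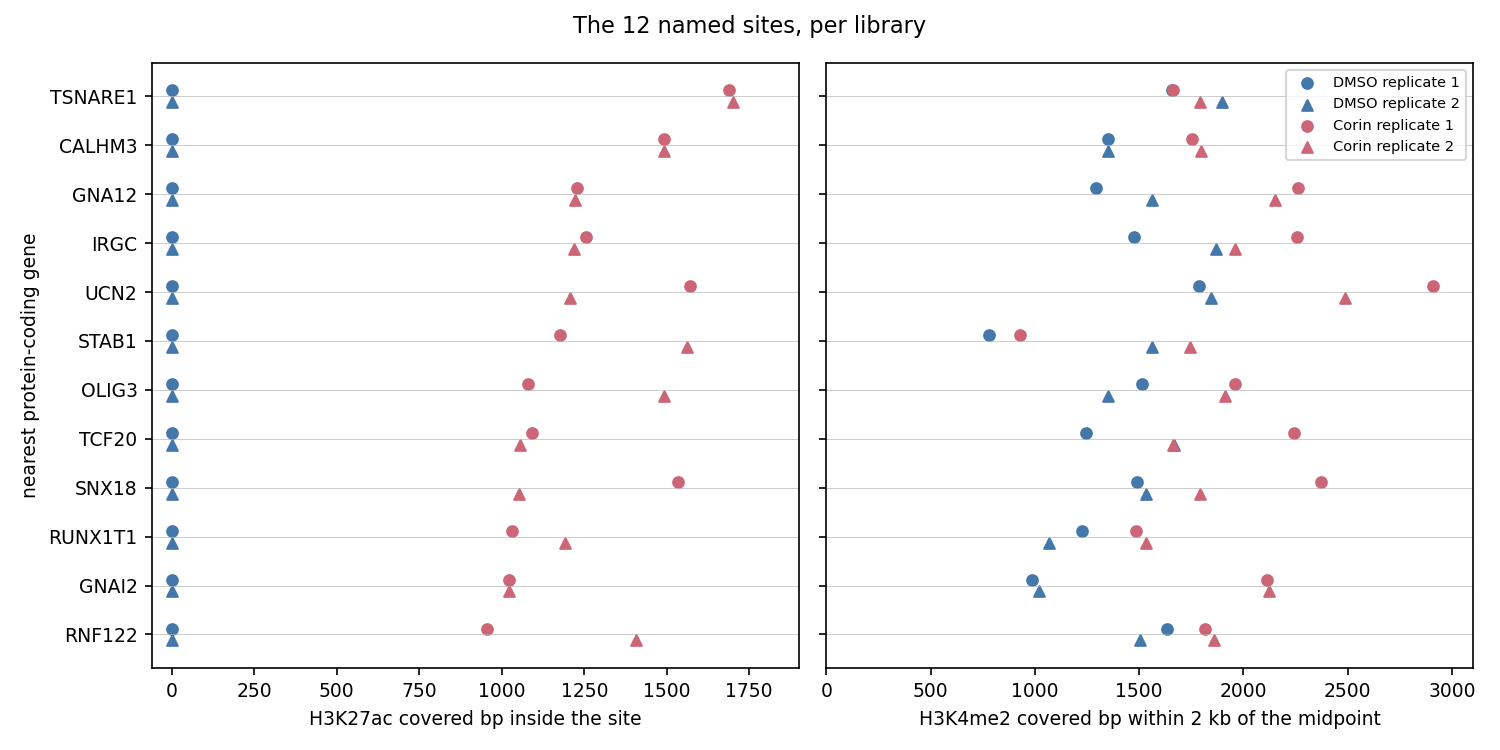
The 12 named sites by nearest gene, with bp inside the site covered by H3K27ac (left) and bp of the 4 kb window covered by H3K4me2 (right), 1 point per library. H3K27ac is 0 bp in both DMSO libraries and between 955 and 1700 bp in Corin. H3K4me2 in DMSO and Corin overlaps at TSNARE1, STAB1 and TCF20, and both Corin values are higher at the other 9 sites. Over all 8402 distal sites both are higher at 63.1%.

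H3K4me2, which the rule read only in DMSO, was broader around the sites in Corin. Its peaks covered on average 905.6 and 941.4 bp of the window within 2 kb of the midpoint in DMSO, and 1552 and 1366 bp in Corin. Both Corin libraries lay above both DMSO libraries. The group means were 923 ± 25.3 bp and 1459 ± 131 bp (SD, n = 2 each), which is 1.58-fold higher in Corin (log2 ratio 0.66, SD 0.14). An exact two-sided permutation test over the 4 libraries gave p = 0.333, the smallest that its 6 arrangements allow, so no difference between 2 libraries and 2 can pass 0.05 here. With the 30896 top-scoring H3K4me2 peaks of each list the log2 ratio was 0.60.

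The ratio was as large at primed sites with H3K27ac in 1 Corin list. Those 989 sites had 822.9 and 799.1 bp in DMSO and 1388 and 1179 bp in Corin, a log2 ratio of 0.66. The effect of Corin at the 710 sites minus that at the 989 was -0.00063 on the log2 scale (SD 0.078, exact permutation p = 1). A log2 ratio of 0.66 is therefore not particular to the 710 sites. Staying sites had 783.2 and 854.6 bp in DMSO and 1169 and 1040 bp in Corin, a log2 ratio of 0.43. Within each library the sites exceeded the staying sites by a log2 of 0.21 and 0.14 in DMSO and 0.41 and 0.39 in Corin. The difference between the 2 classes in the effect of Corin was 0.23 on the log2 scale (SD 0.051, exact permutation p = 0.333, again the smallest possible). Active sites had 1182 and 1186 bp in DMSO and 1681 and 1501 bp in Corin, a log2 ratio of 0.43, which was 0.23 below that of the sites (SD 0.038, exact permutation p = 0.333). Sites that were not CpG-rich gave a difference from staying sites of 0.18, and the 4 quartiles of site width gave 0.40, 0.32, 0.33 and 0.18.

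Site by site, both Corin libraries exceeded both DMSO libraries at 555 of the 710 sites, 78.2%, where the background over all 8402 distal sites was 63.1%. The share was 53.9% of staying and 65.4% of active sites. It was 70.7% of the primed sites with H3K27ac in 1 Corin list. Both were lower at 2 sites, 0.282%, against a background of 1.95%. The median change was 462.75 bp at the sites (interquartile range 247 to 751 bp), 215.5 bp at staying and 353.5 bp at active sites. An H3K4me2 peak was kept in both Corin lists at 703 sites, 99%, with a background of 96.9%. Its presence in both DMSO lists was fixed by the rule.

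A site is drawn as the extent of its DMSO H3K4me2 peaks, so little H3K4me2 could be added inside it. Outside the site but inside the window, H3K4me2 covered 170 and 181 bp in DMSO and 686 and 543 bp in Corin. At staying sites this flank coverage was 183 and 201 bp in DMSO and 484 and 390 bp in Corin. Inside the site, 81.5% and 84.4% of the sequence was covered in DMSO and 96.5% and 92.1% in Corin. At 500 bp downstream of the midpoint, 25.2% and 27.7% of the sites were under an H3K4me2 peak in DMSO and 60.4% and 51.4% in Corin. At staying sites the shares 500 bp downstream were 16.1% and 18.7%, and 40.1% and 31.9%. The profiles of peak coverage around the midpoint show the same widening on both sides.

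**Figure D3:**
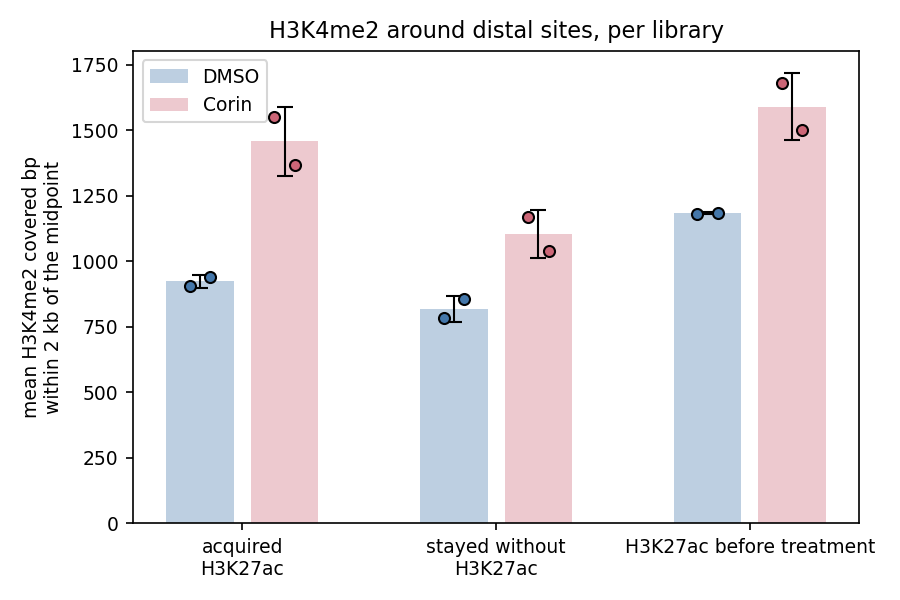
Mean H3K4me2 covered bp within 2 kb of the midpoint. Bars are the mean of 2 libraries, error bars the SD, points single libraries. At the 710 sites DMSO is 923 ± 25.3 bp and Corin 1459 ± 131 bp, and at staying sites 819 ± 50.5 bp and 1105 ± 91.2 bp.

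In width and in the share that was intronic the sites lay near the values of all distal sites, and staying sites lay below both. The median width of the 710 sites was 802.5 bp (range 220 to 3299 bp), against 779 bp over all distal sites, 658 bp in primed sites with H3K27ac in 1 Corin list, 669 bp in staying and 1023.5 bp in active sites. The 710 sites lay at a median of 12119 bp from a TSS, with 27.0% within 5 kb and 32 sites beyond 100 kb. Introns of protein-coding genes held 377 of them (53.1%), lncRNA introns 82, exons 30 and intergenic sequence 221 (31.1%). Over all distal sites 51.9% lay in introns of protein-coding genes and 32.8% were intergenic. The intron share was 54.4% of primed sites with H3K27ac in 1 Corin list and 56.7% of active sites. Of staying sites, 43.9% lay in introns of protein-coding genes and 38.8% were intergenic. The sites lay on every chromosome including X and Y, and the share of primed sites that acquired H3K27ac ran from 9.76% on chromosome 18 to 19.8% on chromosome 5.

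Primed sites near H3K27ac that was already present acquired it more often. DMSO H3K27ac also entered the rule, so this is a description. Their median gap to the nearest DMSO H3K27ac peak was 9072 bp, against 12327 bp for primed sites with 1 Corin peak and 33912 bp for staying sites. H3K27ac was acquired in both Corin lists at 27.3% of the primed sites within 2 kb of such a peak (interval 24.1% to 30.8%). The share was 20.5% at 2 to 10 kb, 13.2% at 10 to 50 kb and 9.59% beyond 50 kb (8.21% to 11.2%). In 156 of the sites a DMSO H3K27ac peak lay inside the 4 kb window, beside the site. At the other end, 147 sites (20.7%) were more than 50 kb from any DMSO H3K27ac peak. With the H3K27ac lists at a matched number the shares were 11.1% within 2 kb and 3.18% beyond 50 kb.

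Wider sites also acquired H3K27ac more often. The share was 9.38% in the narrowest quartile (7.82% to 11.2%), 14.6% and 15.7% in the middle quartiles and 22.4% in the widest (20.1% to 24.9%). A wider site has more room for a peak to overlap it, and the part of that in this order was not tested. By the H3K4me2 score in DMSO the quartiles ran from 12.8% to 18.1%, a narrower range. The shares differed less by distance to a TSS, with 14.1% at 1 to 5 kb and 18.6% beyond 50 kb, and these intervals overlapped.

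CpG content set staying sites apart from the other classes. CpG dinucleotides are depleted in most of the genome and kept in CpG islands, which are commonly unmethylated. The median ratio of observed to expected CpG over the site was 0.229 at the 710 sites, 0.241 at primed sites with 1 Corin peak, 0.353 at staying sites and 0.218 at active sites. In the quartiles of this ratio, 23.3%, 22.1%, 14.4% and 2.36% of primed sites acquired H3K27ac, from the lowest to the highest. Of the 598 primed sites with island-like sequence (a ratio above 0.6 and GC above 50%), 6 did so, 1% (interval 0.461% to 2.17%). Of the other 3972, 704 did, 17.7% (16.6% to 18.9%).

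Island-like sites made up 20.1% of staying sites but 0.845% of the 710 sites, 1.42% of primed sites with 1 Corin peak and 0.168% of active sites. The separation held near to and far from genes. Within 5 kb of a TSS, H3K27ac was acquired at 0 of 191 island-like sites and at 16.4% of the others, and beyond 5 kb at 6 of 407 and at 18.3%. With the H3K27ac lists at a matched number it was acquired at 2 of 599 island-like primed sites and at 6.42% of the others. The 6 exceptions were nearest to PTMA, DYNC2I1, DDIT4, SLC2A3, SLFN11 and INSR. The threshold was chosen after a first look at the composition, so these counts are a description.

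One staying site shows the island type. The intergenic site at chr17:79811242-79815334 is 4093 bp wide, and its nearest protein-coding gene is CBX8, which encodes a Polycomb protein. H3K4me2 covered 2844 and 4093 bp of it in DMSO and 4093 bp in both Corin libraries, and it had no H3K27ac or H3K4me3 in any library. It was chosen after the values were seen, as the widest intergenic island-like staying site whose centre overlaps no exon. Its central 300 bp are printed on the plus strand of hg38 with each CG in capitals.
CBX8 site, chr17:79813138-79813437: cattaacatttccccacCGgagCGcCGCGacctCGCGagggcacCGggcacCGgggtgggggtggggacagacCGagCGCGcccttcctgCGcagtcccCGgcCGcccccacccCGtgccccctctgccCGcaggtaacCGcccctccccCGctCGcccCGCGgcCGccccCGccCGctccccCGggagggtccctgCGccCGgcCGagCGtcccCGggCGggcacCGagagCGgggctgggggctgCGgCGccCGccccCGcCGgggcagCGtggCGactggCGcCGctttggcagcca

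This window holds 42 CG dinucleotides and has a GC content of 81%. The median GC content of the central 300 bp was 48.3% at the 710 sites and 52.3% at staying sites.

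**Figure D4:**
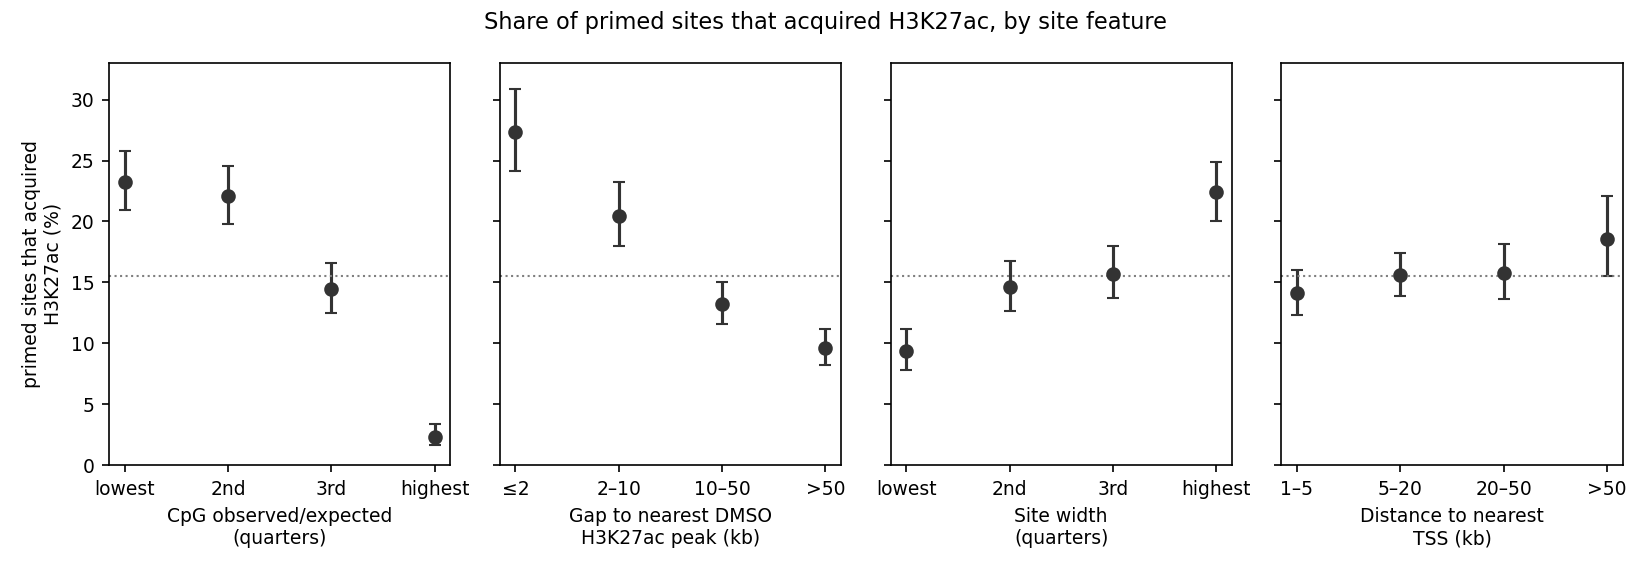
Percent of the 4570 primed sites that acquired H3K27ac in both Corin lists, by quartile of the CpG ratio, gap to the nearest DMSO H3K27ac peak, quartile of site width and distance to a TSS. Points are shares, bars 95% Wilson intervals over sites, and the dotted line is the overall 15.5%. The share is 2.36% in the highest CpG quartile and 27.3% within 2 kb of DMSO H3K27ac.

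Blood factor motifs were somewhat more common at the sites than at staying sites. At least one of the ETS, RUNX, C/EBP and AP-1 motifs was in 63.7% of the 300 bp windows of the sites, in 54.8% of staying, 65.7% of active and 61.8% of all 8402 distal sites. Primed sites with 1 Corin peak had 64.7%, so the higher share is not particular to the 710 sites. Their AP-1 (17.2%), RUNX (27.1%), C/EBP (18.5%) and MYB (30.5%) shares were above those of the 710 sites, and their ETS share was 28.9%. The ETS core was in 29.9% of the sites (interval 26.6% to 33.3%), 23.5% of staying and 28.1% of all distal sites. The AP-1 motif was in 16.2%, 12.1% and 14.4% and the C/EBP motif in 17.9%, 14.4% and 18.6%. The RUNX motif, at 24.9%, 22.6% and 24.9%, stood no higher at the sites than at all distal sites.

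Motifs of other blood and leukaemia factors were also compared. The MYB motif TAACNG was in 28.2% of the sites, 23.1% of staying and 27.9% of all distal sites, and the MEIS motif TGACAG in 23%, 19.2% and 20.8%. Primed sites with 1 Corin peak had the MEIS motif in 23.5%. The STAT motif TTCNNNGAA, read by factors of cytokine signalling, was in 13.4% of the sites (11.1% to 16.1%), 9.06% of staying, 10.3% of primed sites with 1 Corin peak and 10.1% of both active and all distal sites. In these windows it was the only 1 of the 20 whose interval at the sites lay wholly above the shares of staying, active and all distal sites. Centred on the bp shared by both DMSO peaks, the STAT windows came closer to active sites. The shares were then 12.4% of the sites, 8.85% of staying, 11.1% of active and 10.1% of all distal sites. The GFI1 motif AAATCAC was in 4.23% of the sites, 2.89% of staying sites and 4.04% of primed sites with 1 Corin peak. The interval at the sites (2.98% to 5.97%) did not reach the staying share but held the 3.38% of all distal and 3.18% of active sites. A motif of the IRF family, read by interferon regulatory factors, was in 4.79% of the sites, 6.58% of staying, 6.24% of active and 6.32% of all distal sites, and the interval at the sites (3.45% to 6.62%) held all of these. The longer PU.1 motif GAGGAAGT was in 4.51% and 4.53%.

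Motifs rich in CpG or G and C went the other way. The SP motif GGGCGG was in 9.58% of the sites, 25.2% of staying and 14.8% of all distal sites. The motif of the insulator protein CTCF was in 1.27%, 3.59% and 2.00%. Base composition moves with these shares: the median GC content of the site was 47.9% at the sites, 51.9% at staying and 46.9% at active sites. Without island-like sites the SP shares were 9.38% and 15.1%, the ETS shares 29.5% and 26%, and the STAT shares 13.5% and 9.90%. The RUNX shares then turned, to 25% of the sites and 25.7% of staying sites, and so did the GATA shares, to 13.9% and 14.3%.

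Among primed sites, those with and without the ETS core differed most where GC was high. In the upper tertile of window GC, 15.9% of the 347 primed sites with the core acquired H3K27ac and 8.66% of those without it. In the middle tertile these ETS shares were 20.3% and 16.9%, and in the lowest 17.7% and 18.8%. The upper tertile also had higher shares with the other 3 motifs, so the difference there is not particular to the ETS core. They were 17.3% with and 9.36% without AP-1, 14.1% and 9.36% for RUNX, and 13.2% and 10.0% for C/EBP. SP and CTCF went the other way there, at 5.25% with and 14.4% without SP, and 4.21% and 10.7% for CTCF. In the lowest tertile the shares with the other 3 blood motifs were lower than those without, as for ETS. They were 15.6% and 19.5% for RUNX, 17.3% and 18.9% for C/EBP and 17.6% and 18.7% for AP-1. The SP and CTCF motifs turned there too, at 25.6% with and 18.3% without the SP motif (39 sites with it) and 25% and 18.5% for CTCF (12 sites with it). Of the 20 motifs, 12 were more common at the sites than at staying sites. The motifs overlap in part (the PU.1 motif contains the ETS core).

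**Figure D5:**
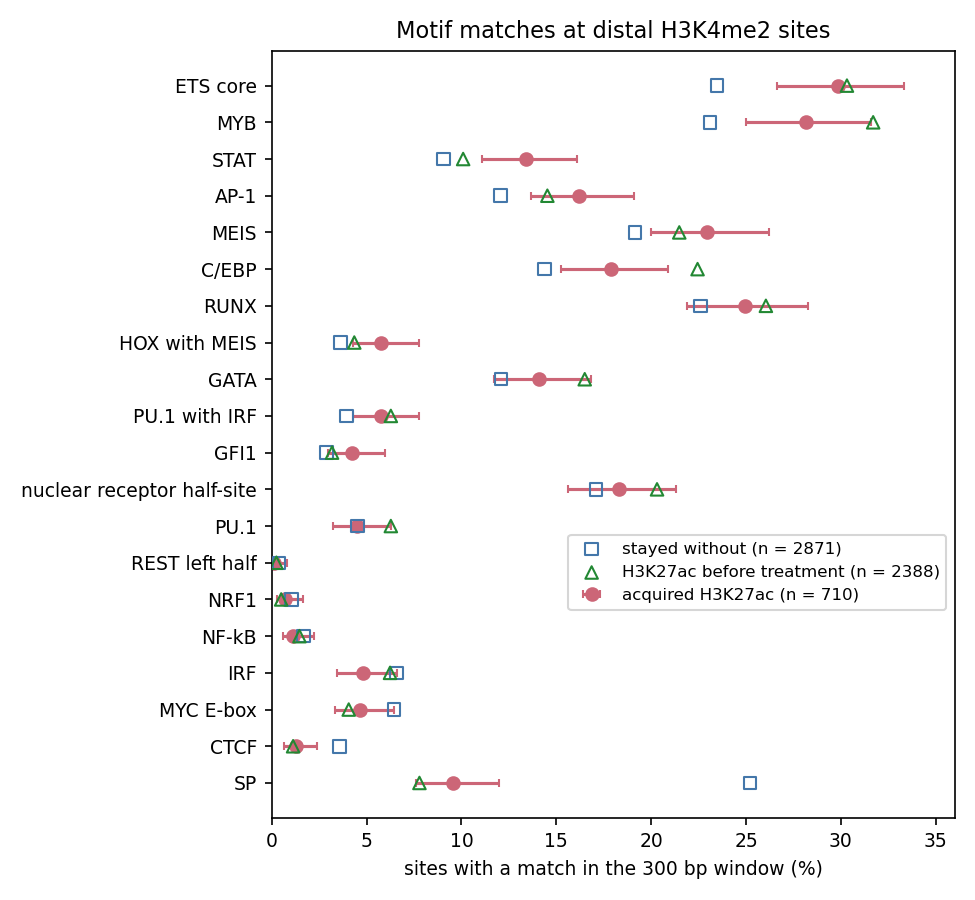
Percent of sites with at least 1 match in the central 300 bp, for 20 motifs ordered by the difference between the 710 sites and staying sites. Filled circles are the 710 sites with 95% Wilson intervals over sites, squares staying sites and triangles active sites. ETS leads at 29.9% against 23.5%, and SP is last at 9.58% against 25.2%.

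The 710 sites were nearest to 644 of 20028 protein-coding genes, 3.22%, which is the background for the lists below. For primed sites with 1 Corin peak that background is 4.30% of genes, for staying sites 11.4% and for active sites 8%, so shares of different classes are read each against its own. A single site was nearest to 583 genes, 2 sites to 57 and 3 or more to 4. Another of the sites lay within 50 kb of 112 (15.8%).

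CHD7, a chromatin remodeller gene, had the most, 4 sites between 174957 and 262857 bp from its nearest TSS, all downstream. The one with the most H3K27ac inside the site, at chr8:60998951-61000339, had 1377 and 771 bp of H3K27ac in Corin. The genes with 3 sites each were CCDC12, DDIT4, an inhibitor of mTOR signalling, and PARP8, a member of the PARP family. The CCDC12 sites lie in introns of the gene, and the windows of those at chr3:46947896-46948895 and chr3:46949090-46949820 overlap. H3K27ac covered 916 and 807 bp of the first in Corin, 332 and 299 bp of the second and 751 and 508 bp of the third. At DDIT4 the sites stand on both sides of the gene, and its H3K4me3 promoter coverage was 2027 and 2234 bp in DMSO and 1739 and 1935 bp in Corin.

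ACSL1, which activates long-chain fatty acids, had 2 sites, with 104 and 329 bp and with 454 and 316 bp of H3K27ac in Corin. BID, a pro-apoptotic member of the BCL2 family, had 2, with 446 and 388 bp and with 563 and 447 bp. CD164, a sialomucin of blood progenitors, had 2 near each other, with 265 and 266 bp and with 927 and 679 bp. AAK1, ATXN1 and C1QTNF7 also had 2 each, and were named with these 3 by alphabetical order among the 57.

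Leukaemia stem cell and MLL-fusion target genes were the list most often nearest to a site, with 11 of 30 genes, 36.7%. The same list was nearest to a staying site at 30.0% of genes to an active site at 63.3% and to a primed site with 1 Corin peak at 20%. MEIS1, the HOXA9 cofactor that MLL fusions switch on, had an intronic site at chr2:66555209-66556280, 115888 bp from its nearest TSS. It had 629 and 248 bp of H3K27ac in Corin, with H3K4me2 of 1072 and 575 bp in DMSO and 1168 and 692 bp in Corin, which overlap. PBX3, a further HOXA9 partner, had an intronic site with 747 and 199 bp. CD44, an adhesion receptor of leukaemia stem cells, had a site 101792 bp upstream with 436 and 340 bp.

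MYC, the growth-promoting transcription factor gene, had 2 sites downstream. The nearer, at 21104 bp, had 839 and 477 bp of H3K27ac and the farther, at 512793 bp, 682 and 390 bp. At the farther site H3K4me2 was 325 and 682 bp in DMSO and 2031 and 1591 bp in Corin. The chromatin organiser gene SATB1 had a site 4951 bp upstream with 654 and 605 bp, beside H3K27ac already present in the window in DMSO (534 and 733 bp). The other genes of the list were SOX4, EYA1, LAMP5, CPEB2, SENP6 and RUNX2. At SENP6 H3K4me2 went down, with 589 and 449 bp in DMSO and 397 and 202 bp in Corin.

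Myeloid and haematopoietic transcription factor genes gave 12 of 62, 19.4%, with 38.7% nearest to a staying and 37.1% to an active site. Primed sites with 1 Corin peak gave the same count, 12 of 62. By H3K27ac inside the site their sites ranked 82 to 706 of the 710. CEBPE, which drives late granulocyte maturation, had an intergenic site 4945 bp away at chr14:23112625-23114310. H3K27ac covered 994 and 556 bp of it in Corin, and H3K4me2 1378 and 1316 bp of its window in DMSO and 2991 and 2196 bp in Corin. Both Corin values exceeded both DMSO values, as at 63.1% of all 8402 distal sites. The CEBPG site had 1001 and 496 bp of H3K27ac and the RUNX3 site 875 and 594 bp. IRF5, a factor of inflammatory macrophages, had a site 2222 bp upstream with 926 and 401 bp.

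The AP-1 genes FOS and FOSL2 had sites with 547 and 517 bp and with 604 and 831 bp of H3K27ac. H3K4me2 at the FOS site was 864 and 1322 bp in DMSO and 2208 and 1763 bp in Corin. KLF4, a monocyte differentiation factor, had 2 sites, 58806 and 384761 bp upstream, with 116 and 438 bp and with 250 and 205 bp. CEBPB, a C/EBP factor of monocytes and macrophages, had a site 157134 bp away where the H3K27ac overlap was 181 and 31 bp, near the lower end of the sites. Its H3K4me2 was 502 and 447 bp in DMSO and 2367 and 1850 bp in Corin. The remaining genes were ELF4, RUNX2, FLI1 and KLF13.

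Granule and neutrophil genes gave 4 of 26, 15.4% (11.5% for staying and for active sites, and 0 of 26 for primed sites with 1 Corin peak). Besides CEBPE these were MMP9, the gelatinase of neutrophil granules, CYBB, the catalytic subunit of the phagocyte oxidase, and FUT4, which makes the CD15 antigen. The MMP9 site, 2961 bp upstream at chr20:46004372-46005947, had 361 and 334 bp of H3K27ac, with H3K4me2 of 1265 and 1576 bp in DMSO and 2139 and 1964 bp in Corin. The CYBB site, intronic at chrX:37786558-37787187, had 329 and 194 bp, with H3K4me2 of 597 and 663 bp in DMSO and 1252 and 1074 bp in Corin. At each of these 2 sites H3K4me2 was higher in both Corin libraries than in both DMSO libraries, as at 63.1% of all 8402 distal sites.

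Monocyte and macrophage genes gave 4 of 46, 8.70% (15.2% for primed sites with 1 Corin peak, 10.9% staying, 17.4% active). CD14, the lipopolysaccharide coreceptor, had a site 23587 bp downstream with 260 and 491 bp of H3K27ac. The chemokine receptor gene CCR1 had one with 275 and 430 bp, and the adhesion receptor gene ADGRE5 one with 680 and 604 bp. The integrin gene ITGAL had one with 418 and 24 bp.

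Retinoic acid receptors and targets gave 3 of 23, 13.0%, among them CEBPE and the receptor gene RARG. Primed sites with 1 Corin peak also gave 3, staying sites gave 17.4% and active sites 21.7%. The RARG site, intronic and 1743 bp from a TSS of the gene, had 490 and 687 bp of H3K27ac. Antigen presentation and interferon genes gave 3 of 47 (IFIT2, MX2 and HLA-DMB), 6.38%, where staying sites gave 14.9%, active sites 10.6% and primed sites with 1 Corin peak 0 of 47. Lymphoid and erythroid genes gave 1 of 40 (LCK), 2.50%, where staying sites gave 8 of 40, active sites 3 of 40 and primed sites with 1 Corin peak 0 of 40. The CoREST complex and its partners gave 0 of 19 and genes repressed by REST 0 of 25. With lists this short and members near the background of 3.22%, the last 3 counts are not a result about the lists.

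H3K4me3 at the promoters of the 644 nearest genes, which the rule did not use, differed little. Within 2 kb of the gene start it covered on average 935 and 984 bp in DMSO and 1036 and 1006 bp in Corin, a log2 ratio of 0.09 (SD 0.060, exact two-sided permutation p = 0.333, the smallest possible). Over all protein-coding genes the ratio was 0.06. Both Corin libraries exceeded both DMSO libraries at 113 of the 644 (17.5%), with a background of 12%, and both were lower at 39 (6.06%), with a background of 4.76%. Genes nearest to active sites had nearly the same shares, 16.9% and 6.30%, and those nearest to staying sites had 12.6% and 5.46%. More of these promoters had an H3K4me3 peak (58.5% to 61.3% over the libraries) than all promoters (48.0% to 49.5%), and so did those nearest to active sites (63.0% to 65.7%).

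H3K27ac at the same promoters comes from the contrast that chose the sites and is given as a description. It covered 359.4 and 451.6 bp in DMSO and 728.4 and 660.8 bp in Corin. Both Corin libraries were higher at 207 of the 644 (32.1%), with a background of 21.6%, and both lower at 0, with a background of 0.305%. Genes nearest to active sites had 35.3% higher. H3K4me2 was higher at 180 promoters (28%), with a background of 17.5%, and lower at 34 (5.28%), with a background of 4.41%. It was higher at 23.8% of the genes nearest to staying and of those nearest to active sites. The promoter window reaches farther from a gene start than the smallest distance from a TSS allowed for a site. A site can therefore lie inside the promoter window of its nearest gene. Its own H3K27ac and H3K4me2 then count in these promoter shares. How much this adds to the differences from the background was not tested.

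The limit of 1 kb from a TSS leaves similar sites on either side. The members nearest to it were by NUMB (1011 bp), VCPKMT (1025 bp) and KATNAL1 (1049 bp), and just outside lay sites by IRX5 (995 bp), KLHDC7B (946 bp) and IFNAR2 (934 bp). In all, 132 sites within 1 kb of a TSS met every other condition.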

How the data were processed

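CUT&RUN peak lists of 12 MOLM-13 libraries were analysed. The series has 19 libraries, and those of all-trans retinoic acid with Corin, LSD1 and IgG were not analysed here. Per the submitters' processing notes, reads were handled with Trim Galore, Bowtie2, Picard and MACS2 on GRCh38/hg38, without stated versions or thresholds. Each list is of 1 library. The score the authors deposited for each peak is a whole number of at least 50, its definition is not given in the sources used here, and it served here only for ranks and thresholds inside one list. None of the 292523 peaks ended past an hg38 chromosome end.

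Sites were formed as described in the report, a peak counting as present when it overlapped by at least 1 bp. Positions are counted from 1. TSS (84610) came from basic protein-coding and lncRNA transcripts of GENCODE release 44. For each library the bp under peaks was summed inside a site, within 2 kb of its midpoint, and within 2 kb of the start of 20028 protein-coding genes (copies of X genes on Y dropped), and averaged over sites. Means were compared by exact two-sided permutation of libraries. Motifs were searched as exact letters on both strands of 300 bp of the hg38 sequence. Shares carry 95% Wilson intervals, which treat sites as independent and cover counting error only. A longer list covers more sequence, and depth can set list length, so lists were also cut to a matched number of top-scoring peaks.

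The named sites were the 12 with the largest smaller Corin H3K27ac value inside the site. The named genes were those nearest to them, the 10 nearest to most sites, and list members nearest to a site. The sites, lists and motifs were chosen with earlier results of these data known. A gene and some sequences that met these rules are not reported here. Alternatives were another number of peaks, score, overlap, TSS distance, merging, window and centre, a replicate block, and leaving out each library. Assignment to classes was tested on simulated regions, 2000 of 2000 placed as made. Python 3.11.15, numpy 2.4.6, pandas 2.3.3 and scipy 1.17.1 were used.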

Additional observations from a re-analysis of the deposited data

How the results depend on the processing

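The number of sites depended on the H3K27ac lists. Cutting them to a matched number of peaks left 265 sites (5.64% of primed sites), and cutting the H3K4me2 lists as well, an alternative added after the data were seen, left 258 (5.72%). Asking a peak to cover 50% of the site gave 703 sites (13.1% of primed sites), and 248 of the 710 were among them. Leaving out 1 library gave 710 to 1439 sites and 12.6% to 31.5% of primed sites. The count moved by over 1.5 times without H3K27ac Corin replicate 2 (1439), DMSO replicate 1 (1121) or DMSO replicate 2 (1336). Leaving out an H3K27ac list loosens the rule, so there the count could only stay or rise. A score of at least 100 gave 649 sites, of which 244 were among the 710 (34.4% of them). Other TSS distances and merging gave 518 to 674 sites.

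The H3K4me2 log2 ratio at the sites was 0.59 to 0.78 over the other windows, scores and list lengths, and 0.57 to 0.75 with a library left out. Against primed sites with H3K27ac in 1 Corin list, a comparison added after the data were seen, the difference was -0.00063. Its difference from staying sites was 0.17 to 0.26 over those windows, scores and list lengths, 0.18 to 0.40 within quartiles of site width, and 0.19 to 0.26 with a library left out. The H3K4me3 ratio at promoters was 0.07 to 0.10, and 0.05 to 0.13 with a library left out. With same-numbered libraries paired as a replicate block these were 0.66, 0.23 and 0.09 (exact sign flips, p = 0.5 each, the smallest that 2 pairs allow). What libraries with one number have in common is not stated in the labels. Deviations of same-numbered libraries correlated at 0.313 for H3K4me2 and 0.193 for H3K4me3. Apart from the difference of -0.00063, none of these 3 ratios turned direction. The PU.1 motif difference, -0.021 percentage points, became 0.206 at 200 bp. Of 40 motif differences at another window or centre, 39 moved by less than the distance from the sites' share to its interval's edge, and 1 (SP, -12.4 percentage points at 200 bp) moved. With 2 libraries a group and no reads, neither a single site's error nor a site below the peak caller's threshold can be resolved.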
